A study of Mus musculus with 20 samples.

Results

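The 43 genes described here act late in the cell cycle, from the decision to enter mitosis to the separation of the daughter cells. They were taken as a fixed list of gene symbols, all 43 had a row among the 55487 genes of the count table, and all 43 passed the filter on low counts. The list was chosen when earlier results of these data were already known. Their transcripts were measured by bulk RNA sequencing in 20 libraries of microglia, the resident macrophages of the brain, from 10 mice. Each mouse gave a library labelled brain cortex and a library labelled brainstem.

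Mutant mice carried Cx3cr1CreER and a Braf LSL-V600E allele, labelled Braf VE and CX3 HET. In this model 4-hydroxytamoxifen, given once to the pregnant female at 37.5 mg per kg on embryonic day 9.5, turns on V600E, a form of the BRAF kinase that signals without its upstream input, in progenitors that express Cx3cr1. Cells that had recombined were not marked in the count table, so a mutant library can hold mutant and non-mutant cells. The protocol is given for the whole series, so controls came from the same kind of injected pregnancy as far as the labels say. At 2 months, 3 mutant and 3 control mice were used, and all 3 controls were Braf WT with CX3 HET. At the stage labelled end-stage, whose age is not given in the sources used here, 2 mutant and 2 control mice were used, of which control M1375 was Braf VE with CX3 WT, without Cre, and control M1521 was Braf WT with CX3 HET. How the microglia were purified is not given in the sources used here.

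Before any result, the labels of the 2-month mice must be set out. In the 2-month records of 5 of 6 mice, title and description carry unlike mouse numbers, the description being the name of the count column, and the genotype depends on the choice for 4 of them (M2617, M2618, M2621 and M2633). Here each library has the genotype that the titles give to the mouse number in its column, so M2617, M2621 and M2624 are mutants and M2618, M2629 and M2633 are controls. The other choice, called the record reading, gives each column the genotype of its own record and makes M2618, M2624 and M2633 the mutants. The labels alone do not settle which is right, and the reading used here was chosen when results of these data were already known, so every 2-month p-value below holds only if that reading is right. M2624 is a mutant and M2629 a control under both.

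Library totals ran from 9395203 to 21171114 counts. Levels are in CPM, the depth-scaled count unit, here with library totals scaled by TMM factors, and differences are log2 ratios with standard errors from edgeR's quasi-likelihood test over all 16595 genes kept. A gene was called where its Benjamini-Hochberg adjusted p was under 0.05. A list of 8 microglial markers summed to between 32200 and 61900 CPM in every library. The 39 Hox genes, which pattern the hindbrain and spinal cord, were at 0.817 to 4.31 CPM in cortex-labelled and 0.428 to 1.9 CPM in brainstem-labelled libraries, with the cortex-labelled library higher in 8 of 10 mice. Libraries are therefore called by their region label only.

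Cells enter mitosis when cyclins A and B activate the kinase CDK1, and the Polo and Aurora kinases then drive the building of the spindle. Kinetochores on the centromeres capture spindle fibres, and a checkpoint holds the anaphase-promoting complex (APC/C) until all chromosomes are attached. Most of these genes are transcribed together late in the cell cycle by the MuvB complex with B-Myb and FOXM1, through CCAAT boxes, which bind NF-Y, and the cell cycle genes homology region (CHR), and they are kept off in resting cells. Adult microglia renew slowly, so few cells are in mitosis in healthy brain at any time.

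Promoter sequence was available for 36 of the 43 genes in the RefSeq promoter table of GRCm38.p6, and the 250 bases before the first listed start were searched. CCAAT, on either strand, occurred in 27 of the 36 windows (75.0%), against 34.5% of all 27025 windows in the table. A CHR, spelled TTTGAA or TTCGAA on either strand, occurred in 12 (33.3%) against 17.4%, and both occurred in 10 (27.8%) against 6.21%. Of the 19 genes with a window that were called in 2-month cortex-labelled mutants (below), 15 held a CCAAT, as did 12 of the 17 that were not called. The windows of Cdk1, Cdc20, Ccnb2 and Top2a are shown because these were the most abundant called genes with both motifs and with no more than 30 bases inside the GENCODE gene. Capitals mark both motifs on either strand, and each sequence ends 1 base before the RefSeq start.
Cdk1: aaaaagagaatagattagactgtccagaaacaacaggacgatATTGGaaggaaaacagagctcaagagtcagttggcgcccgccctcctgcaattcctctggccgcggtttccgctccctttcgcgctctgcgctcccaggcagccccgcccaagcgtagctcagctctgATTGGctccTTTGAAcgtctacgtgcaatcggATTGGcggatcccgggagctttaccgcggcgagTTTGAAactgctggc
Cdc20: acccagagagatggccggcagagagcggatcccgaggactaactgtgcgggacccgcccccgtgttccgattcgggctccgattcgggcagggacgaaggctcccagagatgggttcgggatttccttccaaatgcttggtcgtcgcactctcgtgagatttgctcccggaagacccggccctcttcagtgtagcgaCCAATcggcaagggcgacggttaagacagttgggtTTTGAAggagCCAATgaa
Ccnb2: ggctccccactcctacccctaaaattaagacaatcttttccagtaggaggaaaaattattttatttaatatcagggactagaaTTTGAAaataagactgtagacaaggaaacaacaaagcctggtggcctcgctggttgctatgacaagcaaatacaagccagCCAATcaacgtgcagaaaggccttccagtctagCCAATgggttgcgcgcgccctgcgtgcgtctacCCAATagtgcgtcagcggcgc
Top2a: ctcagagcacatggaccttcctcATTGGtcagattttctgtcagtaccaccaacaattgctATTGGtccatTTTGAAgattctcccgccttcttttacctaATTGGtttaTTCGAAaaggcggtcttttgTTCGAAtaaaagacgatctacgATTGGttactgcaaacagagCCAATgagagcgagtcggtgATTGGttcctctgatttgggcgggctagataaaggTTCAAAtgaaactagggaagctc
These lie on the minus strand at chr10:69352913-69353162 for Cdk1, chr4:118437344-118437593 for Cdc20, chr9:70421555-70421804 for Ccnb2 and chr11:99024190-99024439 for Top2a. The CHR nearest the start began 15 bases before it in Cdk1, 18 in Cdc20, 167 in Ccnb2 and 23 in Top2a. Top2a had 6 CCAAT matches and 4 CHR matches, more than the other 3 shown. The GENCODE start lies upstream of the RefSeq start by 26 bases for Cdk1 and 9 for Cdc20. A motif match is a match of letters and says nothing of binding in these cells. Birc5, Nusap1, Ndc80, Nuf2, Melk, Anln and Mad2l1 had neither spelling in this window.

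In cortex-labelled libraries at 2 months, the mitotic genes were far higher in mutants than in controls. The 43 genes summed to 707, 568 and 752 CPM in mutants M2617, M2621 and M2624 and to 56.3, 113 and 58.4 CPM in controls M2618, M2629 and M2633, a ratio of means of 8.9. Of the 43 genes, 25 were called higher and 0 lower, where the test called 5.45% of all genes in either direction and 3.64% higher. The median log2 difference of the 43 was 3.45, against −0.01 over all genes. All 3 mutants lay above all 3 controls for 43 of 43 genes, a pattern that 13.4% of all genes showed. As the list was chosen with earlier results of these data known, these contrasts with all genes are no independent test. Another 14 genes had an unadjusted p under 0.05 without passing, 39 in all, where 3254 of all 16595 genes had one. In bulk RNA, more cells in mitosis and more mitotic RNA per cell cannot be told apart.

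This result rests on the reading of the labels. Under the record reading 0 of the 43 genes were called, the median log2 difference was −0.61, and the summed level in mutants was 0.624 times that in controls. With the 4 mice of uncertain genotype left out, mutant M2624 alone could be set against control M2629, 0 genes were called, the median difference was 2.94, and 43 of 43 genes were above 0. That fit took the spread of lone samples from the other groups. Leaving out M2633, with the smallest count of any single mouse left out, gave 15 called genes, and the highest such count was 24. Under each of these omissions 15 genes stayed called: Aurka, Aurkb, Bub1b, Ccna2, Ccnb1, Ccnb2, Cdc20, Cdca8, Cdk1, Cenpa, Nuf2, Racgap1, Spc24, Spc25 and Tpx2. Nusap1, Pbk and Top2a were lost under every one.

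**Figure D1:**
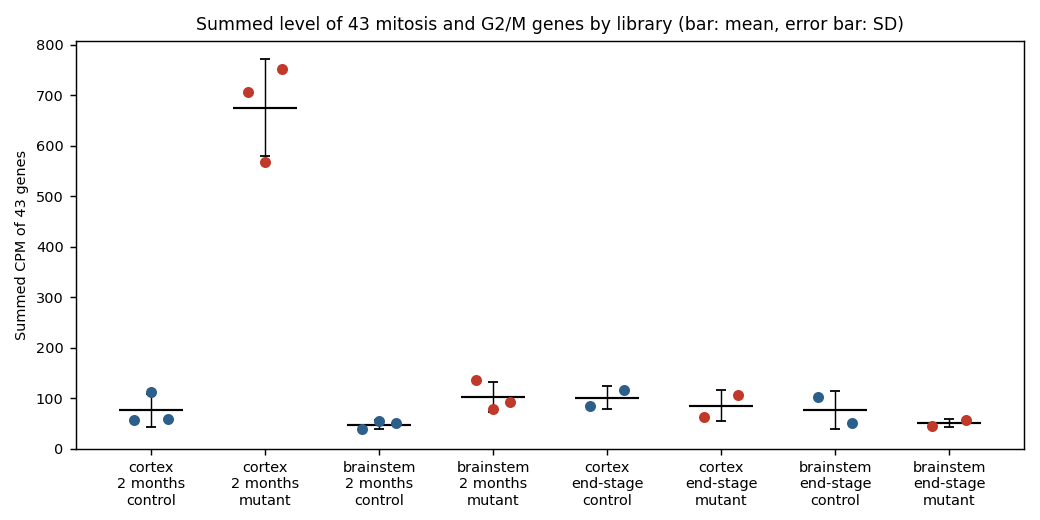
Summed CPM of the 43 mitotic genes (vertical axis, from 0) in each of 20 libraries, grouped by region label, age and genotype. Points are libraries, red for mutants and blue for controls, horizontal bars are means and error bars SD. The 3 cortex-labelled mutants at 2 months stand at 568 to 752 CPM and every other library at 135 CPM or below.

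**Figure D2:**
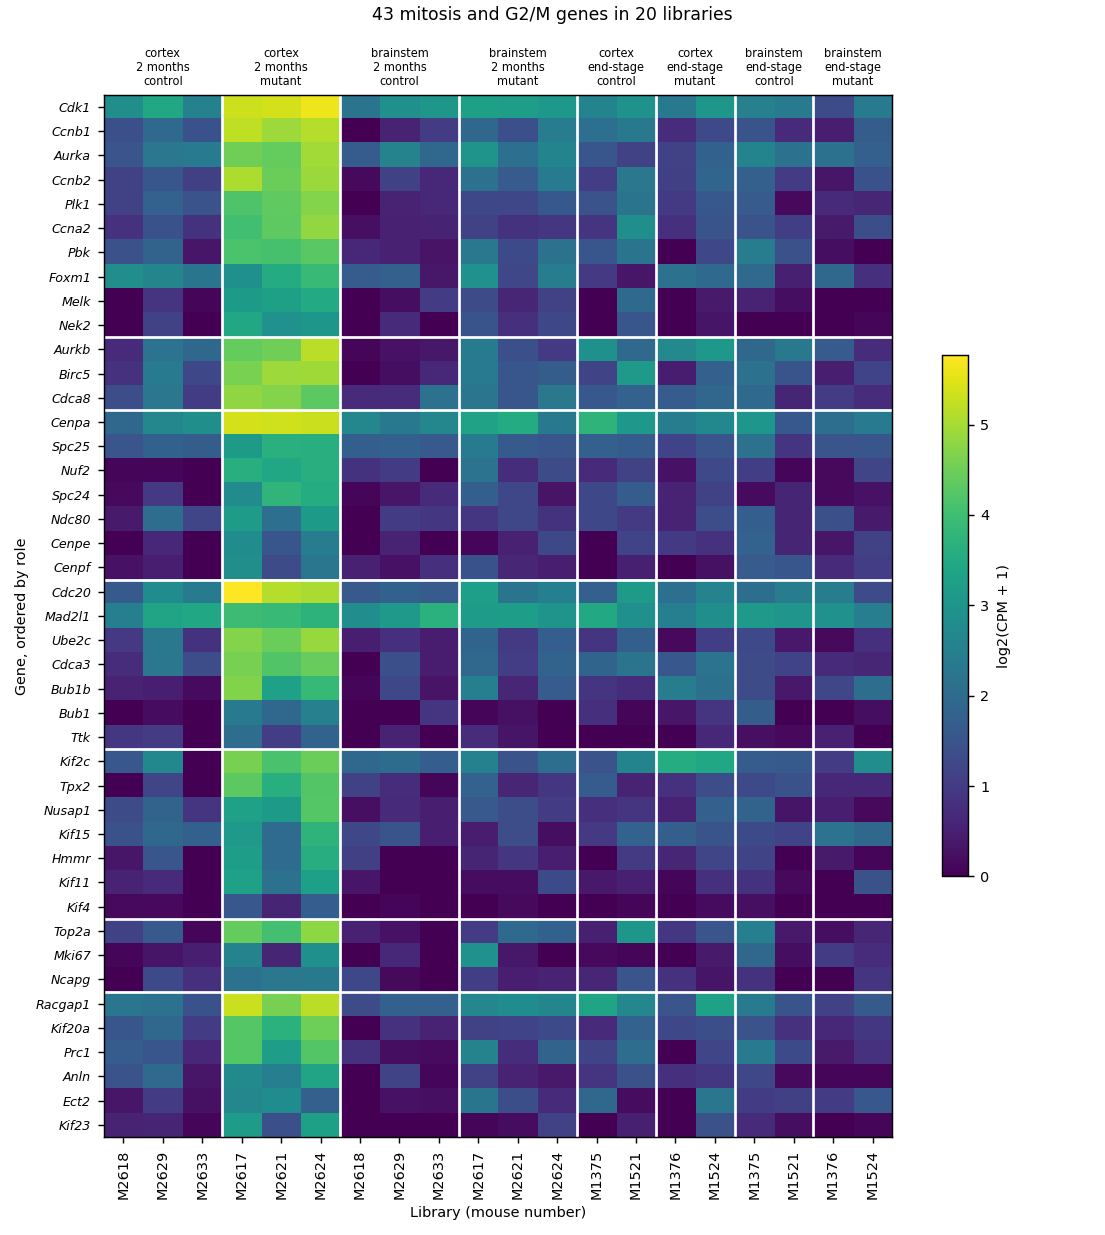
Level of each of the 43 genes (rows, ordered by role) as log2(CPM + 1) in each library (columns, labelled by mouse number). The columns of the 2-month cortex-labelled mutants M2617, M2621 and M2624 are brighter than all others for most rows. In the rows of Mki67, Cenpe, Cenpf, Kif15, Kif23, Ect2 and Foxm1 at least 1 library outside these columns is as bright as the lowest of them.

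Among the kinases and cyclins of mitotic entry, 7 of 10 were called higher in these mutants. In what follows the 3 mutant values are in the order M2617, M2621 and M2624 and the 3 control values in the order M2618, M2629 and M2633. Cdk1, the kinase that drives entry into mitosis, stood at 39.1, 40.8 and 48.4 CPM in mutants and 6.23, 9.96 and 4.75 CPM in controls. In the other 14 libraries it ranged from 1.5 to 8.62 CPM with a median of 5.78, so the mutants stood apart from every other library (log2 difference 2.61 ± 0.37 SE, adjusted p = 0.000911). Ccnb1, a B-type cyclin that partners CDK1, was at 36.1, 29.3 and 33.6 CPM against 1.64, 2.9 and 1.72 CPM. Ccnb2, the second B-type cyclin, was at 32.1, 21.3 and 29.0 CPM against 1.15, 1.9 and 1.12 CPM. Both B-type cyclins were thus low in every control and rose by 3.97 ± 0.73 and 4.29 ± 0.71 on the log2 scale (adjusted p = 0.00391 and 0.00193). Ccna2, cyclin A, which acts in S phase and G2, was at 15.3, 19.3 and 27.6 CPM against 0.765, 1.75 and 0.792 CPM. It was highest in M2624, and its difference was 4.21 ± 0.7 (adjusted p = 0.00196). These cyclins ranged, over the other 14 libraries, from 0 to 4.47 CPM (median 1.55) for Ccnb1, 0.113 to 4.31 CPM (median 1.44) for Ccnb2 and 0.17 to 6.36 CPM (median 0.862) for Ccna2, below every 2-month cortex-labelled mutant.

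Aurka, the kinase of the spindle poles, was at 22.0, 20.2 and 30.4 CPM in mutants and 1.86, 3.9 and 4.16 CPM in controls. Plk1, the Polo-like kinase needed from entry to cytokinesis, was at 17.1, 19.4 and 25.1 CPM against 1.15, 2.5 and 1.78 CPM. Pbk, a mitotic kinase, was at 16.5, 15.9 and 18.5 CPM against 1.69, 2.55 and 0.264 CPM. These 3 kinases differed by 2.87 ± 0.43, 3.49 ± 0.78 and 3.48 ± 0.89 (adjusted p = 0.00115, 0.0119 and 0.0269), and none overlapped the controls. Their other 14 libraries spanned 1.16 to 6.94 CPM (median 3.08) for Aurka, 0 to 3.69 CPM (median 1.15) for Plk1 and 0 to 4.34 CPM (median 1.42) for Pbk. The other 3 of this role did not pass. Foxm1, the transcription factor of late cell cycle genes, had one of the smaller differences, at 6.41, 10.6 and 14 CPM against 6.17, 5.21 and 3.7 CPM (1.04 ± 0.74, adjusted p = 0.491). Melk was at 4.81 ± 1.43 (adjusted p = 0.0617) and the centrosome kinase Nek2 at 4.3 ± 1.49 (adjusted p = 0.109), both from controls that included libraries with 0 counts.

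All 3 of the 43 genes that belong to the chromosomal passenger complex, which corrects faulty spindle attachments and guides cytokinesis, were called higher. Aurkb, its kinase, was at 20.2, 21.9 and 34.7 CPM in mutants and 0.601, 3.55 and 2.84 CPM in controls. Birc5, also known as survivin, was at 23.5, 29.5 and 29.6 CPM against 0.765, 4.2 and 1.39 CPM. Cdca8, also known as borealin, was at 27.2, 24.8 and 18.8 CPM against 1.58, 3.9 and 0.99 CPM. The differences of these 3 subunits were 3.45 ± 0.65, 3.69 ± 0.84 and 3.44 ± 0.69 (adjusted p = 0.00433, 0.0142 and 0.00653). In the other 14 libraries they ranged from 0.0565 to 7.48 CPM (median 2.49) for Aurkb, 0 to 7.52 CPM (median 1.54) for Birc5 and 0.518 to 3.91 CPM (median 2.09) for Cdca8. Incenp, the scaffold subunit, is counted below among the further mitosis genes and was at 17.8, 11.8 and 27.8 CPM against 8.3, 6.26 and 6.14 CPM, a smaller estimate (1.47 ± 0.42, adjusted p = 0.0497 by edgeR).

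Of 7 centromere and kinetochore genes, 5 were called higher. Cenpa, the histone variant that marks centromeres, was at 40.9, 40.0 and 38.3 CPM in mutants and 2.79, 5.31 and 6.27 CPM in controls (3.05 ± 0.44, adjusted p = 0.000952). The 3 mutants were closely alike for this gene, and its highest value in the other 14 libraries was 12.4 CPM. Spc24 was at 5.86, 12.7 and 10.9 CPM against 0.109, 0.951 and 0 CPM. Spc25 was at 7.81, 11.6 and 11.2 CPM against 1.86, 2.45 and 2.24 CPM. Both are subunits of the NDC80 complex, which holds spindle fibres at the kinetochore, and M2617 was the lowest mutant for both (4.72 ± 1.05, adjusted p = 0.0118, and 2.22 ± 0.46, adjusted p = 0.00761). Nuf2, another subunit, was at 11.2, 10.0 and 11.5 CPM against 0.0546, 0.0501 and 0 CPM. The 3 controls held only 2 Nuf2 counts in all, against 602 in the mutants, so the ratio of 291 has a 95% counting interval from 80.1 to 2400 (adjusted p = 0.00375). Ndc80 itself was at 8.0, 3.33 and 7.87 CPM against 0.328, 3.15 and 1.32 CPM and did not pass (1.99 ± 0.94, adjusted p = 0.251). Cenpf, a large protein of the outer kinetochore, was at 6.17, 1.54 and 3.81 CPM against 0.219, 0.4 and 0 CPM (4.12 ± 1.06, adjusted p = 0.028). Outside this comparison the 14 libraries held 0.0565 to 2.34 CPM (median 0.504) for Spc24, 0.829 to 4.17 CPM (median 2.08) for Spc25, 0 to 3.58 CPM (median 0.917) for Nuf2 and 0 to 2.14 CPM (median 0.496) for Cenpf, and only for Cenpf did one of them exceed a mutant given here. The kinetochore motor Cenpe was above the controls in all mutants but missed the threshold (4.37 ± 1.5, adjusted p = 0.102).

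Of 7 genes grouped here under the spindle checkpoint and anaphase, 4 were called higher. Cdc20, the activator of the APC/C that starts anaphase, was at 53.4, 33.9 and 31.8 CPM in mutants and 2.08, 6.01 and 4.29 CPM in controls (3.26 ± 0.5, adjusted p = 0.00129). Ube2c, the ubiquitin-conjugating enzyme of the APC/C, was at 24.8, 21.2 and 28.5 CPM against 0.929, 3.95 and 0.792 CPM (3.7 ± 0.79, adjusted p = 0.00944). Cdca3, placed in this group without being a checkpoint component, was at 23.1, 17.3 and 20.6 CPM against 0.656, 3.85 and 1.58 CPM (3.31 ± 0.79, adjusted p = 0.0179). For these 3 genes M2629 was the highest control, and still several times below the lowest mutant. Bub1b, which encodes the checkpoint protein BUBR1, was at 24.7, 8.81 and 13.5 CPM against 0.492, 0.4 and 0.132 CPM (5.46 ± 0.98, adjusted p = 0.00335). The remaining 14 libraries were at 1.52 to 8.48 CPM (median 3.48) for Cdc20, 0.109 to 2.63 CPM (median 0.78) for Ube2c, 0 to 3.62 CPM (median 1.59) for Cdca3 and 0.0565 to 4.6 CPM (median 1.35) for Bub1b, all below the lowest mutant. Its partner kinase Bub1 was at 4.09, 2.87 and 4.68 CPM against 0, 0.15 and 0 CPM. With 3 control counts against 214, the Bub1 ratio of 68.9 has a 95% counting interval from 23.2 to 337, and its adjusted p of 0.0598 missed the threshold.

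Mad2l1, the checkpoint protein that binds CDC20, had the smallest difference of the 43 genes. It was at 14.6, 13.7 and 12.3 CPM in mutants and 4.64, 9.36 and 9.84 CPM in controls (0.77 ± 0.32, adjusted p = 0.186). In the other 14 libraries it ranged from 4.55 to 11.8 CPM with a median of 6.97, close to the controls. The checkpoint kinase Ttk was at 1.8 ± 1.49 (adjusted p = 0.57).

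Among 7 genes of spindle motors and assembly, 3 were called higher. Tpx2, which activates Aurora A on the spindle, was at 19, 11.2 and 17.6 CPM in mutants and 0, 1.3 and 0 CPM in controls (5.12 ± 1.15, adjusted p = 0.0124). Kif2c, a kinesin that takes microtubules apart at centromeres, was at 22.8, 16.3 and 21.3 CPM against 1.97, 5.46 and 0 CPM (3.01 ± 0.86, adjusted p = 0.0486). Unlike most of the list, Kif2c was also at 10.8 and 9.95 CPM in the end-stage cortex-labelled mutants M1376 and M1524, against 1.8 and 5.06 CPM in controls M1375 and M1521. Nusap1, a spindle protein that binds microtubules, was at 8.85, 7.84 and 17.9 CPM against 1.48, 2.55 and 0.858 CPM (2.81 ± 0.74, adjusted p = 0.0335). Values in the other 14 libraries were 0.0584 to 2.49 CPM (median 0.82) for Tpx2, 1.05 to 10.8 CPM (median 2.98) for Kif2c and 0.108 to 2.57 CPM (median 0.672) for Nusap1. Kif15, a motor that helps keep spindle poles apart, was at 7.69, 3.07 and 12.4 CPM against 1.69, 2.85 and 2.44 CPM and did not pass (1.73 ± 0.67, adjusted p = 0.155). M2621 was close to the controls for Kif15, and the other 14 libraries ranged from 0.16 to 3.6 CPM (median 1.52). The main pole-separating motor Kif11 (4.2 ± 1.41, adjusted p = 0.0954), the chromosome motor Kif4 (4.33 ± 1.45, adjusted p = 0.0977) and Hmmr (3.33 ± 1.47, adjusted p = 0.216) did not pass either. Kif4 was the only one of the 43 genes that passed the filter on low counts solely through the 2-month cortex-labelled mutants.

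Of the 3 genes of chromosome structure, Top2a, the topoisomerase that untangles sister chromatids, was called. It was at 20, 15.4 and 26.5 CPM in mutants and 1.15, 2.05 and 0.066 CPM in controls (4.21 ± 1.09, adjusted p = 0.0285), and elsewhere, in the other 14 libraries, at 0 to 7.32 CPM (median 0.734). Mki67, the gene of the proliferation marker Ki-67, was low and uneven at 4.95, 0.512 and 6.48 CPM against 0.0546, 0.25 and 0.396 CPM (4.07 ± 1.65, adjusted p = 0.173). The highest Mki67 value of all 20 libraries, 6.58 CPM, was in the brainstem-labelled library of mutant M2617. The condensin subunit Ncapg was at 2.39 ± 1.38 (adjusted p = 0.368).

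Of 6 genes of the spindle midzone and cytokinesis, 2 were called higher. Racgap1, a subunit of the centralspindlin complex that positions the cleavage furrow, was at 38.7, 22.8 and 34.9 CPM in mutants and 3.82, 3.5 and 1.72 CPM in controls (3.41 ± 0.51, adjusted p = 0.00115). Kif20a, a kinesin of the midzone, was at 18.1, 11.8 and 21.5 CPM against 1.91, 2.8 and 0.99 CPM (3.16 ± 0.7, adjusted p = 0.0116). Both lay well above the controls and above the other 14 libraries, which were at 1.16 to 9.31 CPM (median 3.32) for Racgap1 and 0 to 2.53 CPM (median 1.05) for Kif20a, but 29.3% of the exon length of Kif20a overlaps Cdc23 on the other strand, and the strand setting of the counts is not known. Kif23, the other centralspindlin subunit, was at 4.07 ± 1.35 (adjusted p = 0.0973), the microtubule bundler Prc1 at 3.21 ± 0.95 (adjusted p = 0.0564), the furrow regulator Ect2 at 3.14 ± 1.22 (adjusted p = 0.153) and the furrow scaffold Anln at 1.97 ± 1.03 (adjusted p = 0.308). Over 10% of the exon length of Ccna2, Ube2c, Kif4, Prc1 and Ncapg also overlaps another gene.

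Across the 43 genes, M2624 was the highest mutant for 22, M2617 for 18 and M2621 for 3, and M2621 was the lowest for 28. Per kilobase of all annotated exons, Cdc20 (21.3 CPM per kb) and Ccnb2 (18 CPM per kb) had the highest levels in the 2-month cortex-labelled mutants, and Cenpf (0.249 CPM per kb) the lowest. That length can exceed the transcripts expressed, so it makes genes only roughly comparable.

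**Figure D3:**
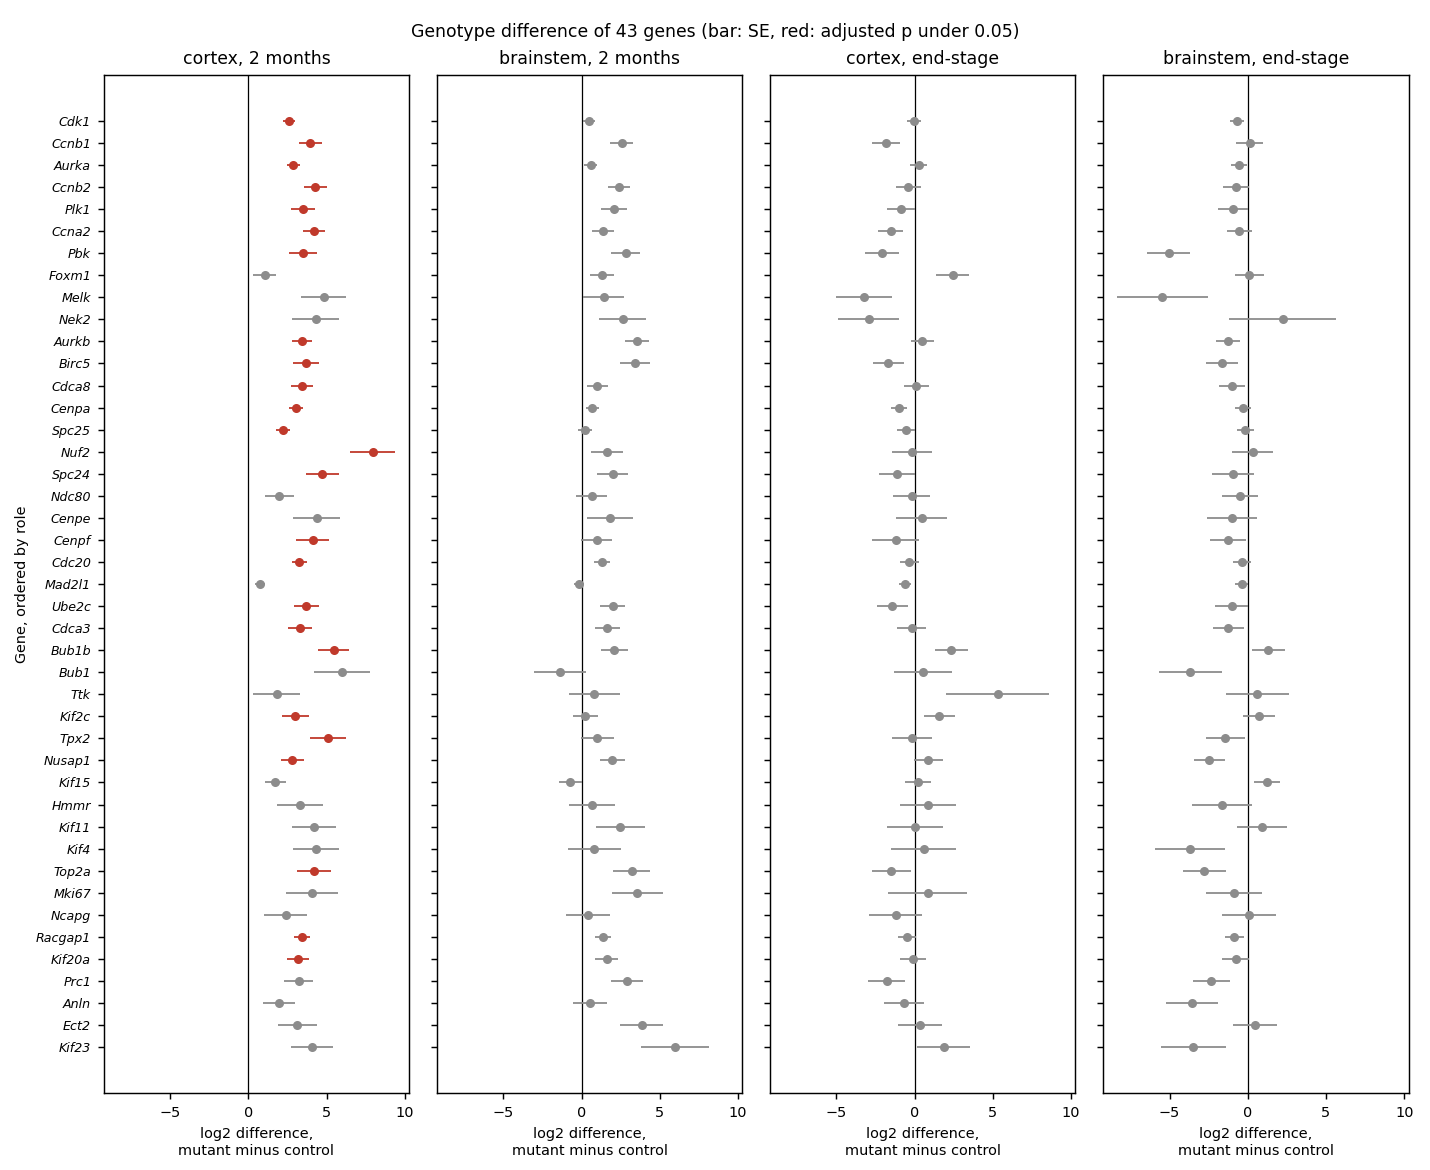
Log2 difference between mutants and controls (horizontal axis) for each of the 43 genes (rows, ordered by role) in the 4 genotype comparisons. Points are estimates, bars are SE, and red marks an adjusted p under 0.05, which 25 genes reached in cortex-labelled libraries at 2 months and 0 in the other 3 comparisons.

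In brainstem-labelled libraries at 2 months, the 43 genes were also higher in mutants as a sum, by a smaller ratio. The sum was 135, 79.4 and 92.1 CPM in mutants and 38.2, 54.5 and 50.4 CPM in controls, a ratio of 2.14, and the groups did not overlap. By edgeR 0 genes were called (0.0362% of all genes), and 17 had an unadjusted p under 0.05, all higher (1461 of all 16595 genes in either direction). Limma-voom called 0 and DESeq2 called 5. The median difference was 1.41, against 0 over all genes, 40 of 43 were above 0, and 17 did not overlap, against 7.19% of all genes. Aurkb had the smallest adjusted p, at 4.09, 1.67 and 0.958 CPM against 0.0565, 0.219 and 0.292 CPM (3.52 ± 0.77, adjusted p = 0.114). Birc5 was at 4.17, 1.91 and 2.23 CPM against 0, 0.165 and 0.584 CPM (3.44 ± 0.95, adjusted p = 0.214), and Ccnb2 at 3.51, 2.16 and 4.31 CPM against 0.113, 1.15 and 0.584 CPM (2.41 ± 0.7, adjusted p = 0.263). These 3 genes were low in all controls. Cdk1 was at 8.62, 8.25 and 7.42 CPM against 3.67, 6.47 and 7.3 CPM and differed by less (0.48 ± 0.36, adjusted p = 0.746). Under the record reading the ratio of the sums was 0.672. Some marker lists moved with the sum in these libraries. The 6 monocyte markers summed to 8.98 to 20.9 CPM in mutants against 4.13 to 5.27 CPM, the 7 vascular markers to 110 to 120 against 54.5 to 69.3 CPM, and 8 ERK output genes to 1570 to 1730 against 1020 to 1450 CPM, all without overlap and with 0 genes called. Ccr2 was higher without overlap (4.46, 6.63 and 10.1 against 1.86, 2.41 and 1.11 CPM). Plac8 overlapped (12.5, 2.16 and 9.74 against 2.26, 1.37 and 3.85 CPM). Most of the ERK sum was Dusp6, which overlapped (1070, 1330 and 1250 against 735, 688 and 1240 CPM). Etv5, Spred1, Etv4 and Spry4 were higher in mutants without overlap. Most of the vascular sum was Pecam1, at 93, 103 and 115 CPM in mutants against 39, 47.3 and 62 CPM in controls. Kdr was also higher (13.9, 6.04 and 5.11 against 4.46, 4.66 and 2.98 CPM). Pdgfrb overlapped (8.84, 0.638 and 0.0798 against 10.5, 3.78 and 4.26 CPM), and Cldn5, Rgs5 and Kcnj8 were at 0 in the mutants. The 7 border-macrophage markers overlapped, at 9.5 to 31 against 1.41 to 16.2 CPM. The part of these cells in the brainstem-labelled result was not tested.

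At 2 months the genotype difference of 39 of 43 genes was estimated lower in the brainstem than in the cortex by label, with a median of −1.88 for the change in log2 difference (0.02 over all genes). No gene passed in edgeR's test of that change (0.0241% of all genes were called), and limma-voom called 0. By edgeR 15 had an unadjusted p under 0.05, all lower (1381 of all 16595 genes in either direction). With the mouse as a fixed block in edgeR 3 genes passed, and DESeq2 called 4. Cdk1 had the smallest p (−2.13 ± 0.5, adjusted p = 0.261).

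In mutant mice at 2 months, 18 of 43 genes were called lower in the brainstem-labelled library and 0 higher, where 4.85% of all genes were called and 2.8% lower. This test, with the SE and adjusted p below, did not pair the libraries of a mouse. The sum was 5.24 times as high in the cortex-labelled as in the brainstem-labelled library of M2617, 7.16 times in M2621 and 8.17 times in M2624, and 41, 43 and 43 of the 43 genes were higher there. The log2 difference, brainstem minus cortex, was −2.4 ± 0.37 for Cdk1 (adjusted p = 0.00125), −4.45 ± 0.72 for Ccna2 (adjusted p = 0.00177) and −2.83 ± 0.49 for Cdc20 (adjusted p = 0.00314). Kif15, which was not called between genotypes, was at 0.365, 1.57 and 0.16 CPM in the brainstem-labelled libraries against the 7.69, 3.07 and 12.4 CPM given above (−3.4 ± 0.73, adjusted p = 0.0127). The other called genes were Ccnb1, Ccnb2, Aurka, Aurkb, Birc5, Cenpa, Nusap1, Ube2c, Plk1, Kif20a, Cdca3, Cdca8, Spc25 and Racgap1. With the mouse as a fixed block in edgeR the count was 30. It was 7 without M2617, 6 without M2621, 3 without M2624, 0 under the record reading and 0 without the 4 mice of uncertain genotype.

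In control mice at 2 months, 0 genes were called between regions (0.145% of all genes), and 11 had an unadjusted p under 0.05 (2039 of all 16595 genes). The mouse block gave 1 call, DESeq2 3 and limma-voom 0. The sum was 1.47 times as high in the cortex-labelled library in M2618, 2.08 times in M2629 and 1.16 times in M2633, so the direction was the same but small. Aurkb had the smallest adjusted p (−3.58 ± 0.77, adjusted p = 0.087).

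At end-stage, the list was low in both genotypes. In cortex-labelled libraries it summed to 84.7 and 117 CPM in controls M1375 and M1521 and 63.5 and 107 CPM in mutants M1376 and M1524, which overlap. By edgeR, limma-voom and DESeq2 0 genes were called, where edgeR called 4.01% of all genes, and 2 genes had an unadjusted p under 0.05, Foxm1 (2.43 ± 1.05, adjusted p = 0.23) and Bub1b (2.35 ± 1.08, adjusted p = 0.265). Over all genes, 2951 of 16595 had an unadjusted p under 0.05 by edgeR. Both mutants lay above both controls for 3 genes (25.1% of all genes did) and below for 6 (24% did), so the list did not exceed the background in either direction. Without M1524 the count was 1. The median difference was −0.19, against 0.02 over all genes.

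In brainstem-labelled end-stage libraries the sum was 103 and 50.3 CPM in controls M1375 and M1521 and 44.7 and 56.1 CPM in mutants M1376 and M1524. M1375, the control without Cre, was the only high library, and without it the ratio of 0.659 became 1. By edgeR 0 genes were called (0.151% of all genes), and 3 were lower at an unadjusted p under 0.05 (1731 of all 16595 genes in either direction). Limma-voom called 0 and DESeq2 called 1. Of the 43 genes 12 were lower without overlap, against 20.5% of all genes, and 1 was higher, against 18.5%. The median difference was −0.87, or −0.78 with the genes that had 0 counts in a group set to a bound of 3 counts over the group. Pbk had the smallest adjusted p (0.132), with 4.34 and 1.71 CPM in controls and 0.166 and 0 CPM in mutants.

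In edgeR's test of the genotype difference between regions at end-stage, 0 of 43 genes passed (0.0844% of all genes), 1 had an unadjusted p under 0.05 (882 of all 16595 genes), and DESeq2 and limma-voom called 0. Between regions at end-stage, 0 genes were called in controls (0.0542% of all genes, 5 at an unadjusted p under 0.05) and 0 in mutants (2.31% of all genes, 8 at an unadjusted p under 0.05), and DESeq2 and limma-voom called 0 in both. Over all 16595 genes, 1697 had an unadjusted p under 0.05 in controls and 2210 in mutants.

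From 2 months to end-stage, the high level of the cortex-labelled mutants was no longer seen. Of 43 genes, 15 were called lower at end-stage and 0 higher, where 1.84% of all genes were called and 1.1% lower, and the median difference was −3.26, against −0.01 over all genes. Aurka was at 1.2 and 2.47 CPM in M1376 and M1524, against 20.2 to 30.4 CPM at 2 months (−3.72 ± 0.54, adjusted p = 0.00159). Ube2c was at 0.109 and 1.11 CPM (−5.37 ± 1.05, adjusted p = 0.0115) and Ccnb1 at 0.653 and 1.43 CPM (−4.99 ± 0.93, adjusted p = 0.00865). The other called genes were Cdk1, Ccna2, Ccnb2, Birc5, Cenpa, Cdc20, Plk1, Kif20a, Cdca8, Spc25, Pbk and Racgap1. The count was 2 without M1376, 8 without M2617, 6 without M2621, 6 without M2624, 0 under the record reading and 1 without the 4 mice of uncertain genotype. Limma-voom gave 27 with the mouse as a random block and 26 without it. The stages were sampled in different mice, so whatever else differed between those mice cannot be told apart from age.

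No such fall was called in controls. In cortex-labelled controls 0 genes were called (0% of all genes), 7 had an unadjusted p under 0.05 (1432 of all 16595 genes), and DESeq2 and limma-voom also called 0, with a median of 0.51. In brainstem-labelled controls 0 were called (0% of all genes), and 8 had an unadjusted p under 0.05, all higher at end-stage (1367 of all 16595 genes in either direction). DESeq2 called 1 and limma-voom 0, and the median was 1.04. In brainstem-labelled mutants 0 were called (0.0422% of all genes), and 13 had an unadjusted p under 0.05 (1704 of all 16595 genes). DESeq2 called 2 and limma-voom 0, and the median was −1.2, or −1.15 with genes at 0 counts set to their bound.

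The difference between genotypes itself was smaller at end-stage than at 2 months in cortex-labelled libraries for 4 genes, where 0.265% of all genes were called and 0.169% lower. These were Cenpa (−4.05 ± 0.68, adjusted p = 0.0145), Ccna2 (−5.75 ± 1.07, adjusted p = 0.03), Ccnb1 (−5.8 ± 1.15, adjusted p = 0.0408) and Racgap1 (−3.87 ± 0.77, adjusted p = 0.0408). The median over the 43 was −3.61, and 41 were below 0. This count was unstable: it was 2 without M1375, 0 without M1376, 1 without M1521, 8 without M1524, 1 without M2617, 2 without M2618, 1 without M2621, 1 without M2624, 1 without M2633, 0 under the record reading, 7 by limma-voom and 20 by DESeq2. In brainstem-labelled libraries 0 genes were called (0.00603% of all genes), 15 had an unadjusted p under 0.05 (733 of all 16595 genes), and limma-voom gave 0 calls and DESeq2 3.

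Other genes of the cell cycle were examined beside the 43, first in cortex-labelled libraries at 2 months, where all calls below were made by edgeR under the same reading. That test called 5.45% of all genes in either direction and 3.64% higher. Of 45 further mitosis genes 10 were called higher and 0 lower, with a median of 2.59. Cks1b, a small subunit of CDK complexes, averaged 23.4 ± 5.52 CPM in the mutants against 3.97 ± 0.693 CPM (SD, 3 mice per group), a log2 difference of 2.56 ± 0.3 (adjusted p = 0.000246 by edgeR). Ccnf, cyclin F, was at 30 ± 2.49 against 1.75 ± 0.945 CPM (4.08 ± 0.54, adjusted p = 0.000571). Both rose more than the spread of the replicates. Tacc3, a spindle protein, was at 31.5 ± 1.86 against 8.27 ± 1.91 CPM (1.93 ± 0.32, adjusted p = 0.00193), and Hmgb2, a chromatin protein, at 76.5 ± 2.3 against 34.2 ± 12.2 CPM (1.16 ± 0.21, adjusted p = 0.00318). The other 6 were Ncapd2, Cdc25b, Kif22, Kif18b, Cdc25c and Incenp.

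Of 42 genes of the G1 to S transition and DNA replication, 13 were called higher and 0 lower, with a median of 1.55. Mcm5 and Mcm6, subunits of the replicative helicase, were at 50 ± 16.2 against 9.06 ± 3.61 CPM (2.47 ± 0.41, adjusted p = 0.00193) and 52.7 ± 21.1 against 13.8 ± 4.69 CPM (1.93 ± 0.33, adjusted p = 0.0022). Lig1, the ligase that joins Okazaki fragments, was at 15.3 ± 3.86 against 3.52 ± 0.835 CPM (2.12 ± 0.39, adjusted p = 0.00421), as was the salvage kinase Tk1 at 24.8 ± 7.59 against 5.82 ± 2.29 CPM (2.09 ± 0.39, adjusted p = 0.00421). The rest were Mcm2, Mcm7, Mcm10, E2f1, Cdt1, Gins2, Rfc5, Rrm2 and Uhrf1.

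Of 7 G1 cyclins and kinases (with Myc) 2 were higher, Ccnd2, a D-type cyclin, at 56.1 ± 22.4 against 5.41 ± 7.63 CPM (3.36 ± 0.92, adjusted p = 0.0408) and Myc at 146 ± 39.2 against 83.5 ± 8.31 CPM (0.8 ± 0.23, adjusted p = 0.0498). Of 12 CDK inhibitors and arrest genes, the inhibitor genes Cdkn2c (1.91 ± 0.29, adjusted p = 0.00129) and Cdkn1a (1.59 ± 0.34, adjusted p = 0.00929) were higher and Cdkn1c lower (−2.14 ± 0.36, adjusted p = 0.00231). Of 11 tested genes of MuvB, DREAM and B-Myb, Tfdp1, the partner of the E2F factors, was higher (0.74 ± 0.18, adjusted p = 0.0178). Estimates in that list ran from −0.46 to 4.11. The highest was that of Mybl2, which encodes B-Myb and was singled out here after its values were seen. It was at 2.32, 4 and 2.16 CPM in mutants and 0, 0.45 and 0 CPM in controls and did not pass (4.11 ± 1.51, adjusted p = 0.13). Of 19 genes of the APC/C and the checkpoints, Pkmyt1, an inhibitory kinase of CDK1, was higher (2.91 ± 0.69, adjusted p = 0.0178), and so was Anapc5 (0.6 ± 0.17, adjusted p = 0.0483). The medians of these 4 lists were 0.56, 0.24, 0.13 and 0.14. Where 5.45% of all genes were called, the few calls in lists this short say little about the lists.

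At end-stage in cortex-labelled libraries these lists gave few calls, in both directions, where edgeR called 4.01% of all genes. The calls are given gene by gene and not as a result about the lists. The condensin gene Ncaph averaged 7.26 ± 3.34 CPM in the mutants against 24.1 ± 1.09 CPM (SD, 2 mice per group), a log2 difference of −1.73 ± 0.33 (adjusted p = 0.00664 by edgeR), and Cks2 at 3.51 ± 0.19 against 10.3 ± 1.61 CPM (−1.56 ± 0.36, adjusted p = 0.02). Cdkn2a, an inhibitor gene tied to senescence, was higher at 3.05 ± 0.926 against 0.156 ± 0.0702 CPM (4.18 ± 1.07, adjusted p = 0.0358), and Cdkn1c lower (−1.62 ± 0.44, adjusted p = 0.0476). Rfc5 was higher (1.16 ± 0.21, adjusted p = 0.00414), and Rbbp4 (−0.74 ± 0.18, adjusted p = 0.0287) and E2f4 (−0.7 ± 0.19, adjusted p = 0.0417) were lower. In brainstem-labelled libraries none of these 6 lists had a gene called by edgeR at either stage (0.0362% of all genes at 2 months and 0.151% at end-stage).

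Some summed markers of other cells were also higher in cortex-labelled mutants at 2 months, mostly through single genes. EdgeR called 5.45% of all genes in this comparison. The 6 monocyte markers summed to 59.6 to 101 CPM in mutants and 1.09 to 6.31 CPM in controls, with 1 of 6 called. Nearly all of this was Plac8 (75.9 ± 20.4 against 1.51 ± 0.788 CPM). Ly6c2 was also higher, near the floor (0.244, 1.13 and 0.977 against 0, 0 and 0.132 CPM). Ccr2 overlapped, at 1.28, 1.49 and 1.23 CPM in mutants and 0.437, 4.1 and 1.45 CPM in controls, and F10 was at 0 in all 3 mutants. The 7 border-macrophage markers summed to 68.1 to 113 CPM against 2.79 to 26.9 CPM, with 1 of 7 called. Here nearly all was Siglec1 (90.3 ± 22.8 against 2.48 ± 1.74 CPM). Lyve1 was at 0 in all 3 mutants against 0, 3.4 and 4.75 CPM in controls. Mrc1 was at 0.122, 1.43 and 1.95 CPM against 0.492, 6.56 and 5.61 CPM. The 7 vascular markers summed to 66.3 to 72.3 CPM against 21.9 to 34.1 CPM, with Kdr and Flt1 called among the 4 tested. Most of that sum was Pecam1, at 34.1, 54.5 and 45.2 CPM against 28.4, 26.2 and 19.1 CPM, which was not called. T and NK cell markers summed to 0.772 to 0.977 CPM against 0 to 0.219 CPM, with none of 7 tested, and neutrophil markers to no more than 0.0512 CPM against no more than 0.264 CPM. Of 8 microglial markers P2ry12 (−1.1 ± 0.2, adjusted p = 0.00391 by edgeR) and Sall1 (−0.59 ± 0.17, adjusted p = 0.0442) fell, and of 7 early genes that tissue dissociation induces Egr1 was higher (2.82 ± 0.5, adjusted p = 0.00285). The 6 B-cell markers were lower (423 to 633 against 655 to 766 CPM, Cd79b called among 3 tested), and the sums for erythroid cells, oligodendrocytes and their precursors, astrocytes, neurons and 7 tested ERK output genes overlapped between genotypes with 0 genes called. Most of the astrocyte sum was Slc1a3 and most of the ERK sum Dusp6, and both overlapped. Gfap was higher without overlap (2.69, 1.69 and 2.21 against 1.04, 1.4 and 1.12 CPM). So was Aldh1l1 (4.33, 3.74 and 2.88 against 1.15, 1.4 and 1.52 CPM). Of the ERK genes, Etv4 did not overlap (5.92, 7.17 and 7.05 against 2.51, 0.15 and 0 CPM), nor did Phlda1 (1.47, 2.25 and 1.29 against 0.219, 0.551 and 0 CPM). The other astrocyte and ERK genes overlapped. In end-stage cortex-labelled libraries the monocyte sum was 2.34 to 5.01 CPM in mutants against 0.423 to 8.48 CPM, and the border-macrophage sum 40.8 to 232 against 19.8 to 23 CPM. Most of the latter in mutants was again Siglec1 (28.8 and 218 against 3.28 and 7.25 CPM). Mrc1 was at 2.4 and 3.64 against 2.86 and 3.42 CPM. The part of other cells in the mitotic result was not tested.

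**Figure D4:**
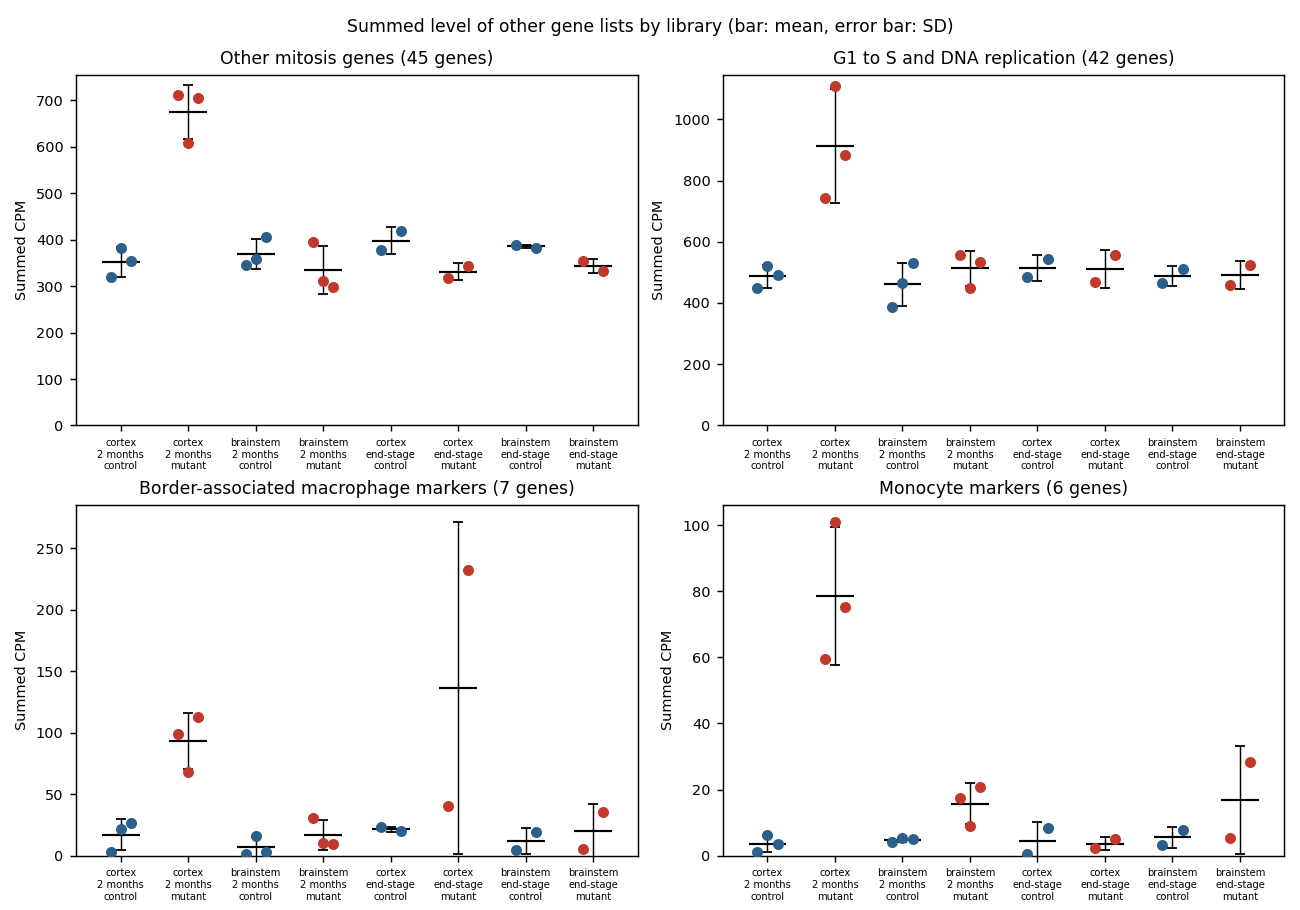
Summed CPM (vertical axes, from 0) of 4 other gene lists in each library, in the same groups, with points for libraries, bars for means and error bars for SD. In cortex-labelled libraries at 2 months the mutants stand above the controls in all 4 panels, at 608 to 712 CPM against 319 to 383 CPM for the 45 other mitosis genes. In the border-macrophage and monocyte panels nearly all of this rise was Siglec1 and Plac8.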

How the data were processed

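Per the labels' protocols, cDNA from bulk microglial RNA went through 12 SMART-Seq v4 cycles and 8 library PCR cycles. The authors deposited 1 table of raw gene counts without normalization. The submitters' processing notes list FastQC, Subread, edgeR and the build mm10 and give no version or role for them. Strand setting and annotation are not given in the sources used here, so overlapping genes can share reads. Symbols were matched to 55094 of 55487 identifiers, and the 393 unmatched held 0.621% of counts.

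The tests used R 4.3.3 and edgeR 4.0.16: filterByExpr (minimum count 10), TMM factors, 1 quasi-likelihood fit over 8 groups and 20 libraries, and Benjamini-Hochberg adjustment over 16595 genes at 0.05. DESeq2 1.42.0 and limma-voom (limma 3.58.1), other scalings and filters, a mouse block, each mouse left out and the record reading were alternatives. Counts of called genes under an alternative are given without the share of all genes it called. The scripts were tested on simulated counts. CPM used TMM-scaled totals, and intervals cover only counting error, as PCR copies were not collapsed by molecular identifiers. A count of 0 allows up to 3 counts.

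Both libraries of a mouse come from 1 animal. Deviations from the group means correlated at 0.1 to 0.26 between them. No libraries were duplicates (highest correlation 0.9663). Gene coordinates and exon overlaps came from GENCODE M21 (GRCm38, the same assembly as mm10), and promoters from RefSeq GRCm38.p6.

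The 43 genes, the other lists and the label reading were chosen with earlier results of these data known. The rule for named genes took those called in any comparison, the 8 highest by mean CPM and the highest of each role: the 6 cortex-labelled 2-month libraries are given singly and most others by range and median, with all 20 in the heat map. From other lists, called genes were named, up to 4 with values.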

Additional observations from a re-analysis of the deposited data

Results flagged for a closer look

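In 4 genes the genotype difference in cortex-labelled libraries changed between 2 months and end-stage by edgeR's test of the difference itself. The change in the log2 difference, end-stage minus 2 months, was −5.75 for Ccna2, −5.8 for Ccnb1, −4.05 for Cenpa and −3.87 for Racgap1. For Ccna2 the end-stage libraries stood at 0.847 and 6.36 CPM in controls M1375 and M1521 and at 0.708 and 1.82 CPM in mutants M1376 and M1524. Ccnb1 stood at 3.28 and 4.03 against 0.653 and 1.43 CPM, Cenpa at 12.4 and 7.45 against 4.47 and 5.46 CPM, and Racgap1 at 9.31 and 5.4 against 1.85 and 8.78 CPM. Mutants lay below controls at end-stage without overlap for Ccnb1 and Cenpa, and the groups overlapped for Ccna2 and Racgap1. Of all genes 24% lay below without overlap in that comparison, and edgeR called none of these 4 genes there. The 2-month side of each value depends on the reading of the mouse numbers.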

How the results depend on the processing

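Under the record reading of the 2-month genotype, the count of called genes was 0 for genotype in cortex-labelled libraries at 2 months, 0 for genotype by stage in cortex-labelled libraries, 0 for region in 2-month mutants and 0 for stage in cortex-labelled mutants. The ratio of summed CPM at 2 months was then 0.624 for the cortex label and 0.672 for the brainstem label. The 2-month cortex-labelled log2 difference reversed for 39 of the 43 genes: Cdk1 −0.6, Ccna2 −0.32, Ccnb1 −0.88, Ccnb2 −0.82, Aurka −0.34, Aurkb −0.26, Bub1 −0.59, Bub1b −1.26, Birc5 −0.84, Top2a −0.43, Cenpa −0.86, Cenpe −0.9, Cenpf −0.99, Tpx2 −0.83, Ube2c −0.72, Cdc20 −1.28, Plk1 −0.47, Kif11 −0.51, Kif20a −0.42, Kif23 −0.11, Kif2c −0.93, Kif4 −0.06, Ttk −0.61, Nek2 −1.27, Hmmr −0.21, Prc1 −0.45, Cdca3 −0.95, Cdca8 −1.38, Ndc80 −0.6, Nuf2 −0.88, Spc24 −0.82, Spc25 −0.51, Pbk −0.77, Melk −0.71, Anln −0.21, Ect2 −2.08, Racgap1 −0.68, Mad2l1 −0.49 and Ncapg −0.84. Without the 4 mice of uncertain genotype, an alternative chosen after seeing the data, those 4 counts were 0, 0, 0 and 1. These alternatives changed the labels or the number of mice, and the cause of the changes was not tested.

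Without the filter on low counts, the counts were 4 and 3 for genotype at end-stage in cortex-labelled and brainstem-labelled libraries, 13 for genotype in brainstem-labelled libraries at 2 months, 11 for genotype by region at 2 months, 25 and 9 for genotype by stage in cortex-labelled and brainstem-labelled libraries, 1 and 9 for region in end-stage and 2-month controls, 5 and 36 for region in end-stage and 2-month mutants, 2 and 6 for stage in cortex-labelled and brainstem-labelled controls, and 30 and 6 for stage in cortex-labelled and brainstem-labelled mutants. DESeq2 gave 1 for genotype in brainstem-labelled end-stage libraries, 5 in brainstem-labelled 2-month libraries, 4 for genotype by region at 2 months, 20 and 3 for genotype by stage, 3 and 28 for region in 2-month controls and mutants, 1 for stage in brainstem-labelled controls, and 25 and 2 for stage in cortex-labelled and brainstem-labelled mutants. With limma-voom, genotype by stage in cortex-labelled libraries gave 7, region in 2-month mutants 33 and stage in cortex-labelled mutants 26. With only the compared groups fitted, region in 2-month mutants gave 32. The cause of these changes was not tested.

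With the mouse as a fixed replicate block in edgeR, the counts were 30 for region in 2-month mutants, 1 in 2-month controls and 3 for genotype by region at 2 months. For comparisons between mice the replicate block was random and fitted in limma-voom (mouse correlation 0.18), so it changed the tool as well, and stage in cortex-labelled mutants gave 27 with it and 26 by limma-voom without it. The other counts with a block stayed within 1.5 times of the edgeR count without one. With each mouse left out in turn, the counts ran from 15 to 24 for genotype in cortex-labelled libraries at 2 months, 0 to 1 at end-stage, 0 to 8 for genotype by stage in cortex-labelled libraries, 3 to 7 for region in 2-month mutants and 2 to 11 for stage in cortex-labelled mutants. The end-stage ratio of sums for the brainstem label ran from 0.49 to 1, the latter without replicate M1375. With RLE size factors or the stricter filter every count stayed within 1.5 times. The shares of all genes called are not given for these settings either. Groups of 2 or 3 mice and controls at few counts per gene limit what could be detected.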
